A study of Mus musculus with 6 samples.

Results

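Matrix metalloproteinases are zinc-dependent proteases that are made as inactive precursors and, once activated, cut collagens, elastin, proteoglycans and basement membrane. Tissue inhibitors of metalloproteinases (TIMPs) bind the active enzymes and block them. In the inflamed gut these genes are known for their expression in stromal cells, macrophages, neutrophils and wound-edge epithelium. The genes described here are the gelatinases Mmp2 and Mmp9, the stromelysins Mmp3 and Mmp10, the collagenase Mmp13, the macrophage elastase Mmp12, the matrilysin Mmp7, the membrane-bound protease Mmp14 and the inhibitors Timp1 and Timp3. They were chosen by name, with earlier results of these data known. Their probe sets were those that the array annotation gives to 1 of these symbols alone. All 10 genes were on the array, with 17 of 45101 probe sets, among 18194 genes with such a probe set.

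The measurements came from colon and liver of male C57BL6/J mice, 7 weeks old, in 3 groups. DSSPAR mice ate a basal diet with 2% parsley throughout, had plain water for 7 days and then drank 1.5% (w/v) dextran sodium sulphate (DSS), which damages the colon lining and brings on colitis. DSS mice ate the basal diet and had the same water and polymer without parsley, and CON mice had the basal diet and plain water. The treatment protocols give 9 days of polymer for DSSPAR and 10 days for DSS, while the growth protocol, worded after DSSPAR, gives 9 days. By the treatment protocols, diet and 1 day of exposure differed together and cannot be told apart.

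RNA of 7 mice was pooled per group, and each group had 1 Affymetrix Mouse Genome 430 2.0 array per tissue, 6 arrays in all. Every fold below therefore compares 2 pools and has no replicate error, no test and no p-value. Values are MAS5 intensities on a linear scale, scaled by the authors, and the tissues were scaled apart and are not set against each other. A floor was placed at the median of the 3 arrays of each tissue, 25.1 in colon and 96.6 in liver. A gene was measured in a comparison where at least 1 of its 2 arrays reached the floor, and a value under the floor was raised to it, so that its fold is given as "at least". A gene with several probe sets is given by its brightest one, and its other probe sets are described beside it.

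As a gauge of noise, the spread (robust SD) of the difference in log2 ratio between probe sets of 1 gene was 0.35 for DSSPAR over DSS, 0.40 for DSSPAR over CON and 0.39 for DSS over CON in colon. It was 0.52, 0.44 and 0.50 in liver for these comparisons, and it leaves out differences between pools. Of 44 olfactory receptor probe sets, genes that neither tissue should express, 0%, 2.27% and 2.27% reached the floor in the DSSPAR, DSS and CON colon, against 15.9%, 22.7% and 27.3% in liver. Colonic epithelium markers were all above the floor in colon, and hepatocyte markers were all above it in liver. A control probe set for small-subunit ribosomal RNA read 390 in the DSSPAR colon, 4018 in the DSS colon and 6156 in the CON colon, so the DSSPAR array stands apart from the others in this control. The ratio of the 3′ to the 5′ control probe set of beta-actin was 1.69, 1.30 and 1.61 in the DSSPAR, DSS and CON colon. In liver it was 2.63, 3.53 and 3.55 in the same order of groups. For Gapdh the ratios were 0.753, 0.696 and 0.850 in colon and 1.07, 1.54 and 1.21 in liver. The part of these control differences in the results was not tested.

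In colon, Mmp13, Mmp3 and Mmp10 were the members that differed most between the arrays in each of the 3 comparisons. Timp1 was the next in the comparisons with CON, while Mmp9 and Mmp14 came before it in DSSPAR against DSS. Mmp13, Mmp3, Mmp10 and Timp1 all had their highest intensity in DSS, an intermediate one in DSSPAR and their lowest in CON. The 5 members Mmp13, Mmp12, Mmp3, Mmp10 and Mmp7 lie in one gene cluster on chromosome 9, within 427 kb (positions 7272514 to 7699585 of GRCm38.p6). The 100 bases before an annotated start of each of these 5 genes are printed because all of them hold the letters TGAGTCA, the AP-1 motif, on one strand or the other, and Timp1 is printed as the member with a large colon difference that lacks them. The sequences are RefSeq's on GRCm38.p6, plus strand, 5′ to 3′, with the AP-1 motif (TGAGTCA, or TGACTCA when read from the reverse strand) and the TATA box (TATAAA) in capitals.
Mmp3, chr9:7445722-7445821: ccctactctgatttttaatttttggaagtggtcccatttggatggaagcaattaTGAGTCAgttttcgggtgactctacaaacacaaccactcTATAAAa
Mmp10, chr9:7502242-7502341: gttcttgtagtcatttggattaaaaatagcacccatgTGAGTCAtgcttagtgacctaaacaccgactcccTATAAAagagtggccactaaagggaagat
Mmp13, chr9:7272414-7272513: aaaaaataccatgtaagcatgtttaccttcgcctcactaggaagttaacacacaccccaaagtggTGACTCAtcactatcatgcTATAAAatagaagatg
Mmp7, chr9:7691990-7692089: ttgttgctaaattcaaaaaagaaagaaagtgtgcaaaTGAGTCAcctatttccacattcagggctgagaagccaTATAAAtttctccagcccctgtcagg
Mmp12, chr9:7347274-7347373: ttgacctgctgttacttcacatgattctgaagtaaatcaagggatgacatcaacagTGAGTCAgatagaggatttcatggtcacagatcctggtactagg
Timp1, chrX:20870066-20870165: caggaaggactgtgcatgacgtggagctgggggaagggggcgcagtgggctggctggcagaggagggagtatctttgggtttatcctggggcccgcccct

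Promoters of 8 of the 10 members were in the sequence table, with 10 annotated starts, since Mmp7 and Mmp12 have 2 each. Mmp2 and Mmp9 were not among them. The AP-1 letters, searched on both strands in the 100 bases before a start, were in 5 of these 10 windows and in 1.88% of all 32851 promoters. The TATA letters, searched likewise (TTTATA on the reverse strand), were in 4 of the 10 windows and in 5.56% of all promoters. The STAT motif TTCNNNGAA, which reads the same on both strands, was in 0 of the 10 and in 2.55% of all. The AP-1 and TATA letters share no bases in these windows. The first base of the AP-1 letters lay 46 bases before the start in Mmp3, 63 in Mmp10, 35 in Mmp13, 63 in Mmp7 and 44 before the start printed for Mmp12. That of the TATA letters lay 7 bases before the start in Mmp3, 29 in Mmp10, 16 in Mmp13 and 26 in Mmp7. All distances depend on where the start is annotated. The other Mmp12 start, at 7344397, lies before the printed one and lacks the AP-1 letters, as does the other Mmp7 start. A match of letters is a description of the window and shows no binding. The 5 genes with the motif differed in the arrays, since Mmp3, Mmp10 and Mmp13 were far apart between groups in colon while Mmp7 and Mmp12 were near the floor.

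**Figure D1:**
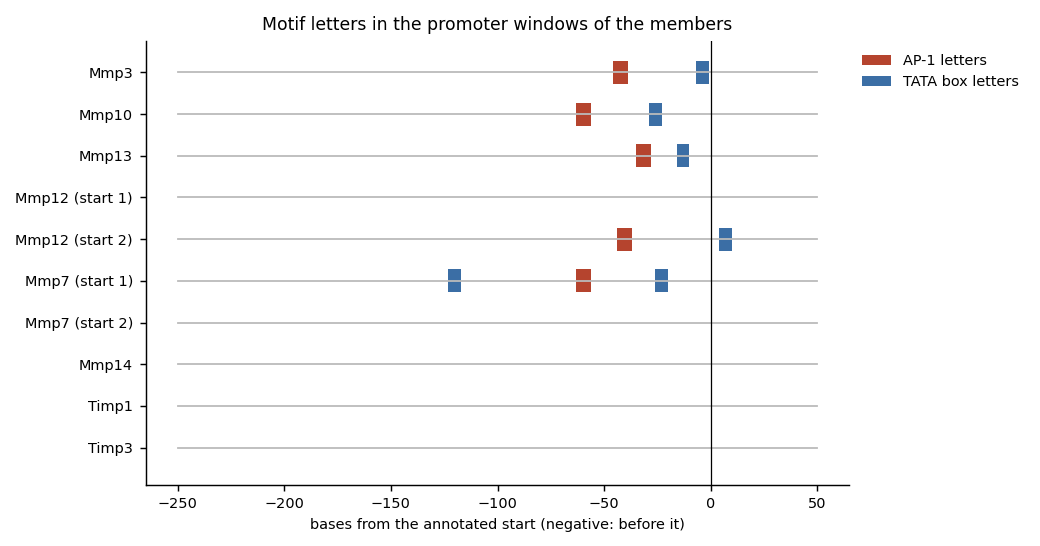
Position of the AP-1 (TGAGTCA) and TATA box (TATAAA) letters in the promoter windows of the members found in the sequence table, as distance in bases from the annotated start (horizontal axis), with 1 row per start. The AP-1 letters appear in the rows of Mmp3, Mmp7, Mmp10, Mmp12 and Mmp13 alone, between 35 and 63 bases before a start.

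The collagenase gene Mmp13, whose product cuts fibrillar collagen, read 154 in the DSSPAR colon, 746 in the DSS colon and 29.2 in the CON colon. The CON value lay just above the floor. Mmp13 was 4.85-fold lower in DSSPAR than in DSS, 5.27-fold higher in DSSPAR than in CON and 25.5-fold higher in DSS than in CON. The stromelysin gene Mmp3, whose product cuts proteoglycans and activates other metalloproteinase precursors, read 106 in DSSPAR, 482 in DSS and 17.6 in CON, which is under the floor. Mmp3 was 4.54-fold lower in DSSPAR than in DSS, at least 4.23-fold higher in DSSPAR than in CON and at least 19.2-fold higher in DSS than in CON. The related stromelysin gene Mmp10 read 86.0 in DSSPAR, 312 in DSS and 11.3 in CON, again under the floor. Mmp10 was 3.63-fold lower in DSSPAR than in DSS, at least 3.43-fold higher in DSSPAR than in CON and at least 12.4-fold higher in DSS than in CON. Each of these 3 genes has 1 probe set, so no second probe set bears on them. Among all measured genes, ordered by the DSS over CON ratio, Mmp13 was number 7 from the top, Mmp3 number 11 and Mmp10 number 23. The places of Mmp3 and Mmp10 rest on bounds, and with no floor their log2 ratios, both 4.78, were above that of Mmp13, at 4.67. Ordered by the DSSPAR over DSS ratio, Mmp13 was number 15 from the bottom, Mmp3 number 16 and Mmp10 number 23. The 2 orders share the DSS array, so a high value in that array moves a gene in both.

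The inhibitor gene Timp1, which is induced in injured tissue and encodes a soluble inhibitor, read 68.8 in the DSSPAR colon, 139 in the DSS colon and 21.7 in the CON colon. It was 2.02-fold lower in DSSPAR than in DSS, at least 2.74-fold higher in DSSPAR than in CON and at least 5.53-fold higher in DSS than in CON. With the floor at the 75th percentile, above both the DSSPAR and CON values, the log2 ratios of Timp1 were -0.41 for DSSPAR over DSS and 0.41 for DSS over CON, short of 2-fold. Timp3, whose product binds to the matrix and also inhibits membrane-bound sheddases, had another order. It read 251 in DSSPAR, 446 in DSS and 426 in CON, so that DSS and CON were near each other, at 1.05-fold, and their order turned with quantile normalization and with the mean over probe sets. The DSSPAR value was 1.78-fold below that of DSS and 1.70-fold below that of CON. All 4 of its probe sets were lower in DSSPAR than in DSS, by log2 ratios of -0.85 to -0.26 after flooring, and lower than in CON, by -0.90 to -0.62. The end at -0.26 is a bound, from a faint probe set that read 6.06 in DSSPAR, under the floor, and 30.0 in DSS. The other probe sets of Timp3 lay at -0.85 to -0.74 against DSS, outside the spread between probe sets. The whole range against CON lay outside it too.

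The gelatinase gene Mmp2, a product of fibroblasts and other stromal cells, read 173 in the DSSPAR colon, 252 in the DSS colon and 119 in the CON colon. It was 1.46-fold lower in DSSPAR compared with DSS and 2.11-fold higher in DSS than in CON. Its other probe set gave the same order of arrays, with 126, 253 and 94.6, and differed by a larger factor, 2.68-fold higher in DSS than in CON and 2.01-fold lower in DSSPAR than in DSS. The gelatinase gene Mmp9, a granule protein gene of neutrophils that macrophages express too, read 26.0 in DSSPAR, 61.5 in DSS and 31.0 in CON. DSSPAR and CON both lay near the floor, and Mmp9 was 2.37-fold lower in DSSPAR compared with DSS and 1.98-fold higher in DSS than in CON, just short of 2-fold. After centring on array medians or quantile normalization it passed 2-fold between DSS and CON, and the order of DSSPAR and CON turned. Its other probe set lay under the floor in all 3 arrays.

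The macrophage elastase gene Mmp12 read 44.6 in the DSSPAR colon, 39.3 in the DSS colon and 16.6 in the CON colon. It was the only member whose intensity was higher in DSSPAR than in DSS, by 1.14-fold, which is inside the spread between probe sets. It was at least 1.78-fold higher in DSSPAR and at least 1.57-fold higher in DSS than in CON. With no floor its log2 ratios over CON were 1.43 in DSSPAR and 1.25 in DSS, past 2-fold. Mmp7, an epithelial matrilysin that processes defensins in mouse Paneth cells, read 20.5 in DSSPAR, 29.1 in DSS and 14.6 in CON. Only the DSS value reached the floor, and it lay under the brightest olfactory receptor probe set of that array (34.2), so no difference in Mmp7 was detectable at this signal. Mmp14, a membrane-anchored protease that activates the Mmp2 precursor, read 126 in DSSPAR, 263 in DSS and 181 in CON. It was 2.09-fold lower in DSSPAR than in DSS, 1.44-fold lower in DSSPAR than in CON and 1.45-fold higher in DSS than in CON. Its second probe set read 85.1, 116 and 59.5, which is a 1.43-fold higher value in DSSPAR than in CON, so the 2 probe sets disagree on that comparison, and with the mean over probe sets the log2 ratio of DSSPAR over DSS was -0.51. The third lay under the floor in all 3 arrays.

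**Figure D2:**
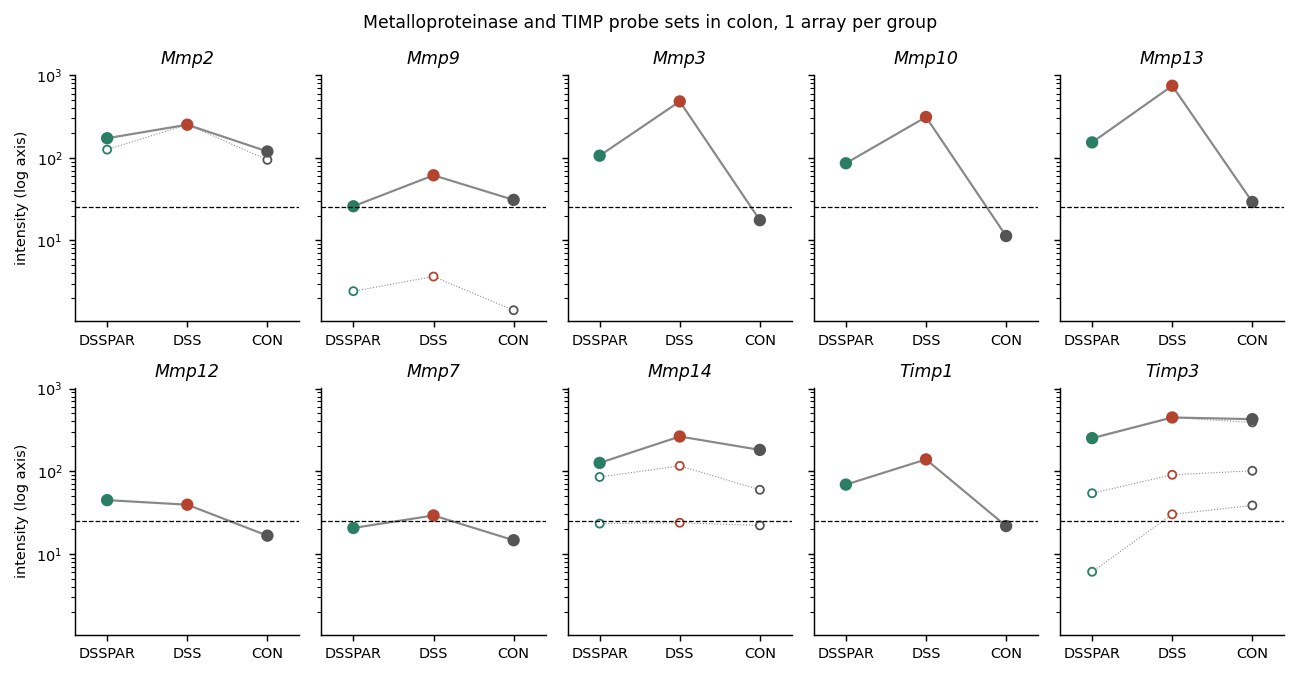
Intensity of each member's probe sets in colon (log axis), with the groups DSSPAR, DSS and CON from left to right and 1 array per group. Filled points are the brightest probe set, open points the others, and the dashed line is the floor of 25.1. Mmp13, Mmp3, Mmp10 and Timp1 are highest in DSS, intermediate in DSSPAR and lowest in CON, whereas Timp3 is lowest in DSSPAR.

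Counted together, 6 of 10 members were lower by 2-fold or more in DSSPAR than in DSS (Mmp3, Mmp9, Mmp10, Mmp13, Mmp14 and Timp1) and 0 were higher. Over all 11730 measured genes, 1.24% were at least 2-fold lower and 0.392% at least 2-fold higher. Because the members were chosen with earlier results of these data known, such shares are not a blind background for this count or those below. The median log2 ratio was -1.04 over the members, against -0.01 over all genes. Timp1 and Mmp14 lay close to 2-fold. With arrays centred on their medians, centred on the probe sets above the floor or quantile normalized, both fell short of 2-fold. Their log2 ratios were then -0.82 to -0.92 for Timp1 and -0.87 to -0.98 for Mmp14, leaving 4 of 10 members lower by 2-fold or more.

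Between DSS and CON, 5 of 10 members were at least 2-fold higher in DSS (Mmp2, Mmp3, Mmp10, Mmp13 and Timp1) and 0 were lower, where 5.18% of all 11952 measured genes were higher and 1.97% lower. The median log2 ratio was 1.03 over the members, against 0.04 over all genes. All 10 members lay above CON, as did 54.1% of all measured genes. For Timp3, which lay below CON after quantile normalization, the difference was less than the spread between probe sets. The log2 ratio of Mmp7, 0.21, is a bound that cannot be set against that spread. With no floor it was 0.997, at a signal too faint to read.

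Between DSSPAR and CON, 9 members were measured, 4 of which were at least 2-fold higher in DSSPAR (Mmp3, Mmp10, Mmp13 and Timp1) and 0 lower. Of all 11808 measured genes, 3.51% were higher and 2.1% lower. The median log2 ratio was 0.83 over the members, against 0.03 over all genes. The count depended on the floor, which sets the CON value of 3 of these genes. With the floor at the 75th percentile of intensity, 0 members passed 2-fold, and Mmp13 had a log2 ratio of 0.56 and Mmp3 of 0.03. These 3 comparisons share arrays pairwise and are not independent.

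**Figure D3:**
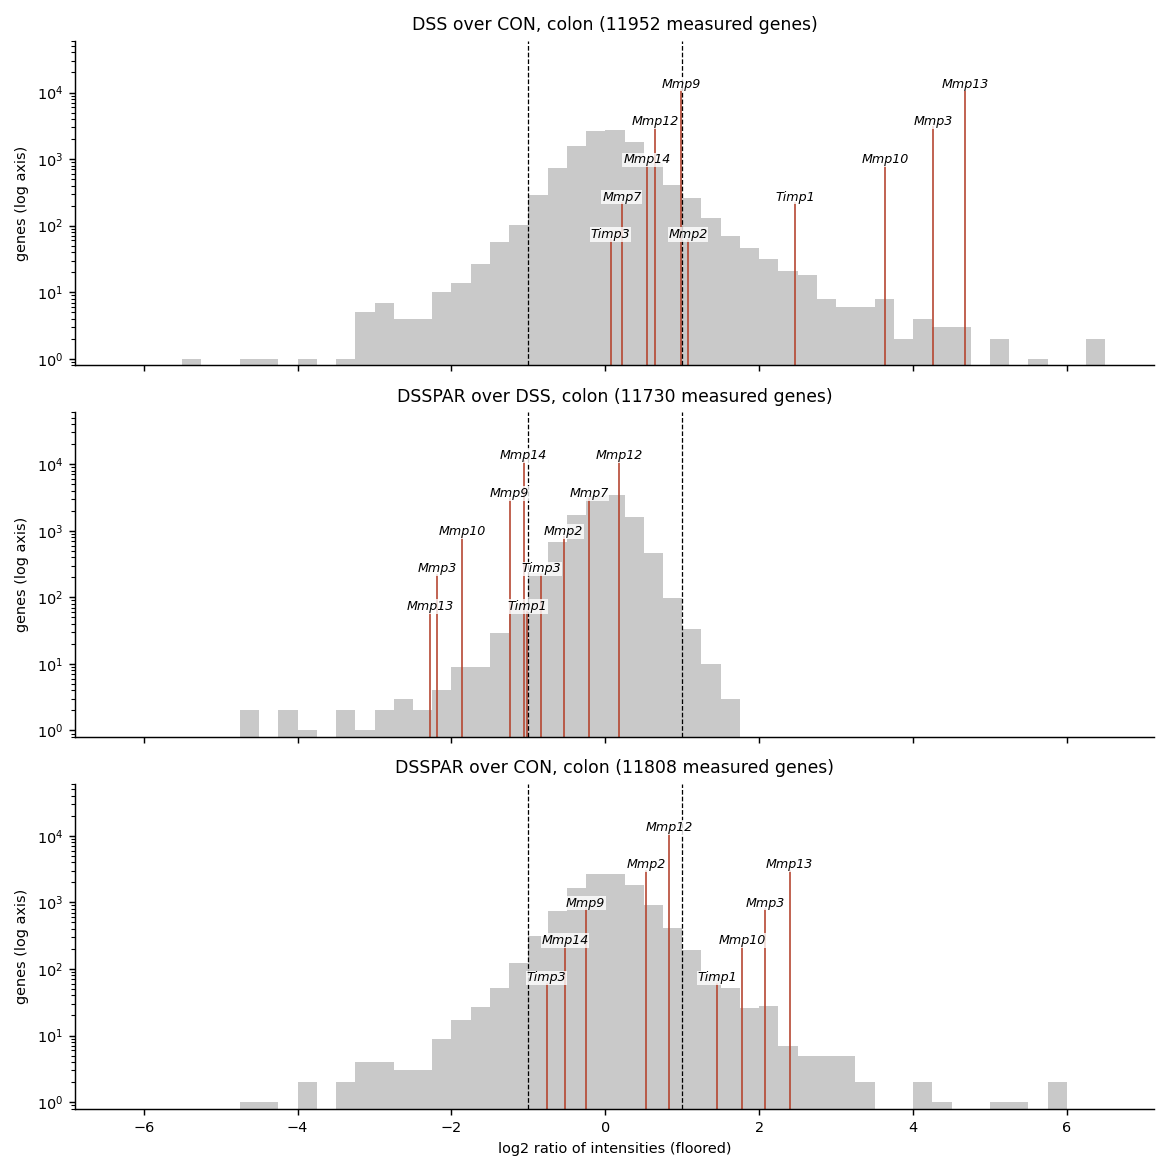
Distribution of log2 ratios over all measured genes in colon (grey bars, number of genes on a log axis) with each member as a labelled vertical line, whose height has no meaning. The dashed lines mark 2-fold. Mmp13, Mmp3 and Mmp10 lie at the high end of DSS over CON and toward the low end of DSSPAR over DSS.

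The genes nearest in pattern were found by Euclidean distance over the colon log2 ratios DSS over CON and DSSPAR over DSS, which rest on 3 arrays. The 10471 candidates were genes measured in both comparisons whose brightest array reached the 60th percentile of intensity. For Mmp3 they were Lcn2, a siderophore-binding protein gene, at 0.07, then Mmp13 at 0.42 and the haptoglobin gene Hp at 0.58. For Mmp13 they were Lcn2 at 0.40, Mmp3 at 0.42 and the chemokine gene Cxcl9 at 0.94. Nearest to Mmp10 were Hp and the macrophage chitinase-like gene Chil3, both at 0.18, then the serum amyloid gene Saa3 at 0.30. Timp1 had other neighbours, the guanylate-binding protein gene Gbp6 at 0.07, Spon1 at 0.17 and Wfdc12 at 0.18. Where CON is floored the distance rests on a bound. This holds for Mmp3, Mmp10 and Timp1 and for Lcn2, Hp, Chil3, Cxcl9 and Wfdc12.

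Other genes of the proteolytic system were taken from lists. Of 10 other metalloproteinase genes on the array, 4 were measured for DSSPAR against DSS and for DSS against CON, and 0 passed 2-fold either way. The neutrophil collagenase gene Mmp8 read 20.6 in the DSSPAR colon, 37.8 in the DSS colon and 9.99 in the CON colon, at least 1.51-fold higher in DSS than in CON. Of 4 measured genes of other inhibitors, 2 were at least 2-fold lower in DSS than in CON. Timp4, a TIMP found in heart and fat, read 73.0 in DSSPAR, 37.6 in DSS and 104 in CON, 2.76-fold lower in DSS than in CON. The serine protease inhibitor gene Tfpi2 read 62.2 in DSSPAR, 34.5 in DSS and 78.2 in CON, 2.27-fold lower in DSS. Timp4 and Tfpi2 were 1.94-fold and 1.80-fold higher in DSSPAR than in DSS, an order of the groups opposite to that of Timp1.

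Plasmin activates several metalloproteinase precursors. Of 4 measured genes of plasminogen activation, 2 were at least 2-fold higher in DSS than in CON and 0 differed by 2-fold between DSSPAR and DSS. The tissue activator gene Plat read 154 in DSSPAR, 161 in DSS and 59.6 in CON, so that it was as high in DSSPAR as in DSS. The urokinase receptor gene Plaur read 51.8 in DSSPAR, 87.8 in DSS and 38.7 in CON. Of 12 measured ADAM and ADAMTS protease genes, 2 were lower by 2-fold or more in DSSPAR than in DSS, and 3 were at least 2-fold higher in DSS than in CON. Adamts1, which encodes a proteoglycan-cutting protease, read 69.3 in DSSPAR, 140 in DSS and 31.9 in CON, 2.02-fold below DSS in DSSPAR and 4.37-fold above CON in DSS.

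Among cytokines that induce metalloproteinases in fibroblasts, 2 of 8 measured were lower by 2-fold or more in DSSPAR than in DSS. Between DSS and CON, 3 of 9 were at least 2-fold higher in DSS. Il6 read 19.0 in DSSPAR, 143 in DSS and 0.312 in CON, so DSSPAR was at least 5.71-fold below DSS. Il33, an alarmin gene, read 86.4 in DSSPAR, 197 in DSS and 55.7 in CON, 2.28-fold lower in DSSPAR than in DSS. Il1b, a strong inducer of Mmp3 and Mmp13 in cultured fibroblasts, read 293 in DSSPAR, 369 in DSS and 54.2 in CON, so DSSPAR was 1.26-fold lower than DSS and 5.40-fold higher than CON. Of 8 measured AP-1 subunit genes, 0 passed 2-fold for DSSPAR against DSS (median log2 ratio -0.02) or for DSS against CON (0.03). Between DSSPAR and CON, 1 of 8 was at least 2-fold higher in DSSPAR and 1 was lower by 2-fold or more. Of 15 substrate genes (collagens, elastin and basement membrane), 15 lay lower in DSSPAR than in DSS, with 1 past 2-fold and a median log2 ratio of -0.54, against -0.01 over all genes. That 1 was Col5a1, at 112 in DSSPAR, 253 in DSS and 97.6 in CON. In DSS over CON, 5 of the 15 were at least 2-fold higher and the median log2 ratio was 0.77.

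Each array held RNA of whole tissue, in which fewer cells of a type and less RNA per cell cannot be told apart. Markers of several cell types moved with the members. The summed intensity of 10 neutrophil markers was 2509.5 in the DSSPAR colon, 3174 in the DSS colon and 111 in the CON colon, and 7, 5 and all 10 of them lay under the floor in these arrays. No marker was at 0. Of 5 measured, 3 were at least 2-fold higher in DSS than in CON and 0 were lower by 2-fold or more in DSSPAR than in DSS. S100a8, a neutrophil calprotectin gene, read 1423 in DSSPAR, 2057 in DSS and 18.5 in CON. The 14 macrophage markers summed to 6687 in DSSPAR, 7365 in DSS and 2024 in CON, with 9 of 11 measured at least 2-fold higher in DSS than in CON and 1 of 11 (Chil3) lower by 2-fold or more in DSSPAR than in DSS. The 11 fibroblast markers summed to 6931 in DSSPAR, 8415 in DSS and 5060 in CON, with 2 of 11 at least 2-fold higher in DSS than in CON and 0 of 11 past 2-fold between DSSPAR and DSS, though 9 of 11 lay lower in DSSPAR (median log2 ratio -0.24).

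Endothelial markers (9) summed to 437 in the DSSPAR colon, 761 in the DSS colon and 447 in the CON colon, with 2 of 8 measured past 2-fold toward lower values in DSSPAR against DSS. Squamous epithelium markers (11) summed to 351 in DSSPAR, 446 in DSS and 267 in CON, but did not move together. Of 7 measured, 4 were at least 2-fold higher in DSS than in CON and 1 was lower, Krt14, at 45.0 in DSS and 137 in CON. Between DSSPAR and DSS, 1 of 7 was lower by 2-fold or more in DSSPAR. Of 10 exocrine pancreas markers, 8 were lower by 2-fold or more in DSSPAR than in DSS and 8 were at least 2-fold higher in DSS than in CON, with median log2 ratios of -3.18 and 3.18. Prss2, a trypsinogen gene, read 14.2 in DSSPAR, 581 in DSS and 12.0 in CON. The sums of the list were 2247 in DSSPAR, 4432 in DSS and 2771 in CON, and 7, 0 and 7 of its markers lay under the floor. Most of the DSSPAR and CON sums was the elastase gene Cela1, at 2036 in DSSPAR, 1628 in DSS and 2554 in CON, lowest in DSS. Adipocyte markers (6) summed to 855 in DSSPAR, 1421 in DSS and 525 in CON, with 2 of 4 measured past 2-fold toward lower values in DSSPAR against DSS and 3 of 4 at least 2-fold higher in DSS than in CON. Adipoq, the adiponectin gene, read 31.6 in DSSPAR, 82.5 in DSS and 28.3 in CON. Smooth muscle markers (8) summed to 13745 in DSSPAR, 13255 in DSS and 15117 in CON, with 0 past 2-fold in any of the 3 comparisons. The part of cell content in the results was not tested.

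**Figure D4:**
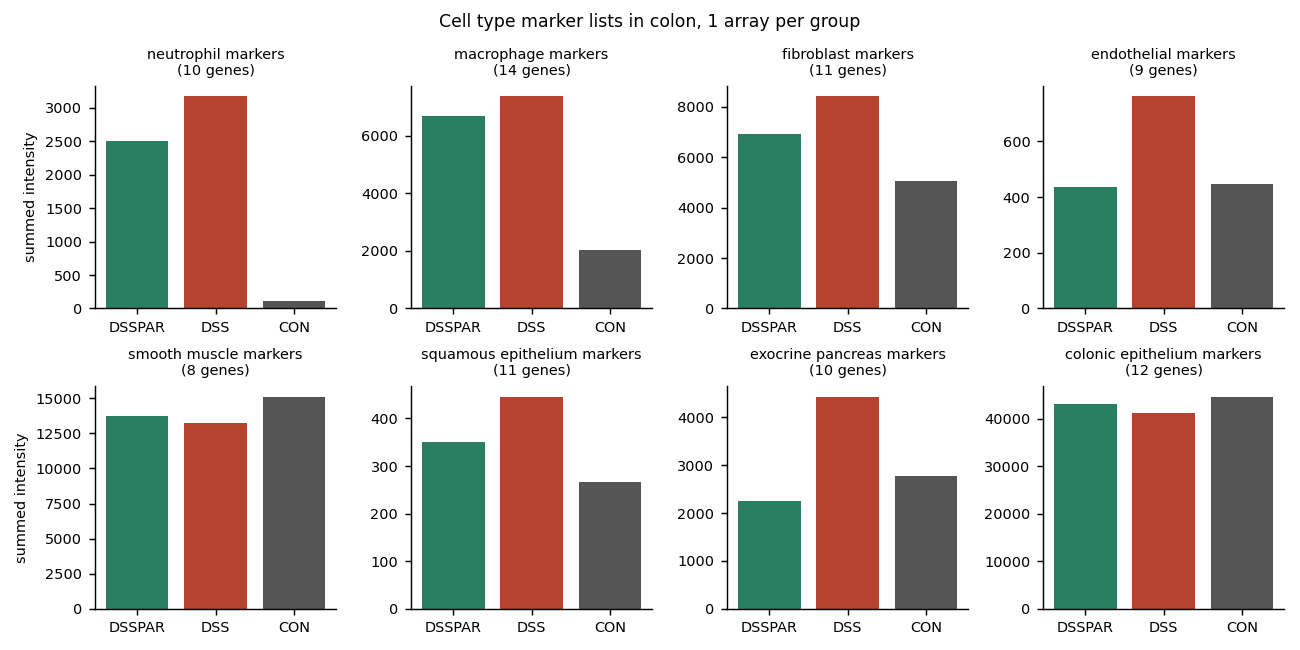
Summed intensity of marker lists in colon (linear axis), with the groups DSSPAR, DSS and CON and 1 array per group. Neutrophil markers sum to 2509.5, 3174 and 111 in these groups, and smooth muscle markers lie between 13255 and 15117.

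In liver, most members read near the background of the arrays, Mmp14 and Timp3 read above it, and no member passed 2-fold in any of the 3 comparisons. Of 10 members, 5, 4 and 3 in the DSSPAR, DSS and CON liver were above the 95th percentile of olfactory receptor probe sets (109, 129 and 156). Mmp10, Mmp12 and Mmp13 were under the floor in all 3 arrays, so 7 members were measured in each comparison. The share of all genes at least 2-fold higher was 2.8% for DSSPAR over DSS, 3.26% for DSSPAR over CON and 4.73% for DSS over CON, and the share lower was 4.23%, 3.45% and 4.2%. At those shares a count of 0 in 7 members is near the background. The median log2 ratios over the measured members were -0.10, -0.02 and -0.01 in these comparisons, against -0.02, -0.04 and -0.02 over all genes.

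Mmp14 and Timp3 were the members clearly above background in all 3 liver arrays. Mmp14 read 1213 in the DSSPAR liver, 1191 in the DSS liver and 610 in the CON liver. It was 1.99-fold higher in DSSPAR and 1.95-fold higher in DSS than in CON, both just short of 2-fold, with DSSPAR and DSS at 1.02-fold. With each array centred on its median, the log2 ratios were 1.30 for DSSPAR over CON and 1.11 for DSS over CON, past 2-fold. Its second probe set read 200, 265 and 117 in the same order of groups, also with both polymer groups above CON. The third, at 151, 74.6 and 109, put DSS under the floor and disagreed. Timp3 read 263 in DSSPAR, 519 in DSS and 410 in CON, so it was 1.97-fold lower in DSSPAR than in DSS. Its other bright probe set gave 299, 406 and 330, a smaller difference in the same direction. In its fainter ones DSSPAR was lowest too, but at 44.1 and 23.7, under the floor. With the floor at the 75th percentile, the log2 ratio of Timp3 for DSSPAR over DSS was -0.50, which rests on a bound.

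The remaining liver members were faint, and each lay above the 95th percentile of olfactory receptor probe sets in 1 array at most, except Mmp9, which did so in DSSPAR and DSS. Timp1 read 7.13 in the DSSPAR liver, 133 in the DSS liver and 133 in the CON liver, and only the last 2 reached the floor, so DSSPAR was at least 1.37-fold below DSS. Mmp7 read 130 in DSSPAR, 11.6 in DSS and 115 in CON. Mmp3 read 77.5 in DSSPAR, 103 in DSS and 179 in CON, so that DSSPAR was at least 1.85-fold below CON. Each of these 3 genes has 1 probe set. Mmp9 read 112 in DSSPAR, 161 in DSS and 84.1 in CON, and its second probe set lay under the floor throughout. Mmp2 read 131 in DSSPAR, 113 in DSS and 133 in CON. All these values were inside the range of the olfactory receptor probe sets, whose brightest read 231, 217 and 184 in the DSSPAR, DSS and CON liver, so their differences cannot be told from background at this signal.

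**Figure D5:**
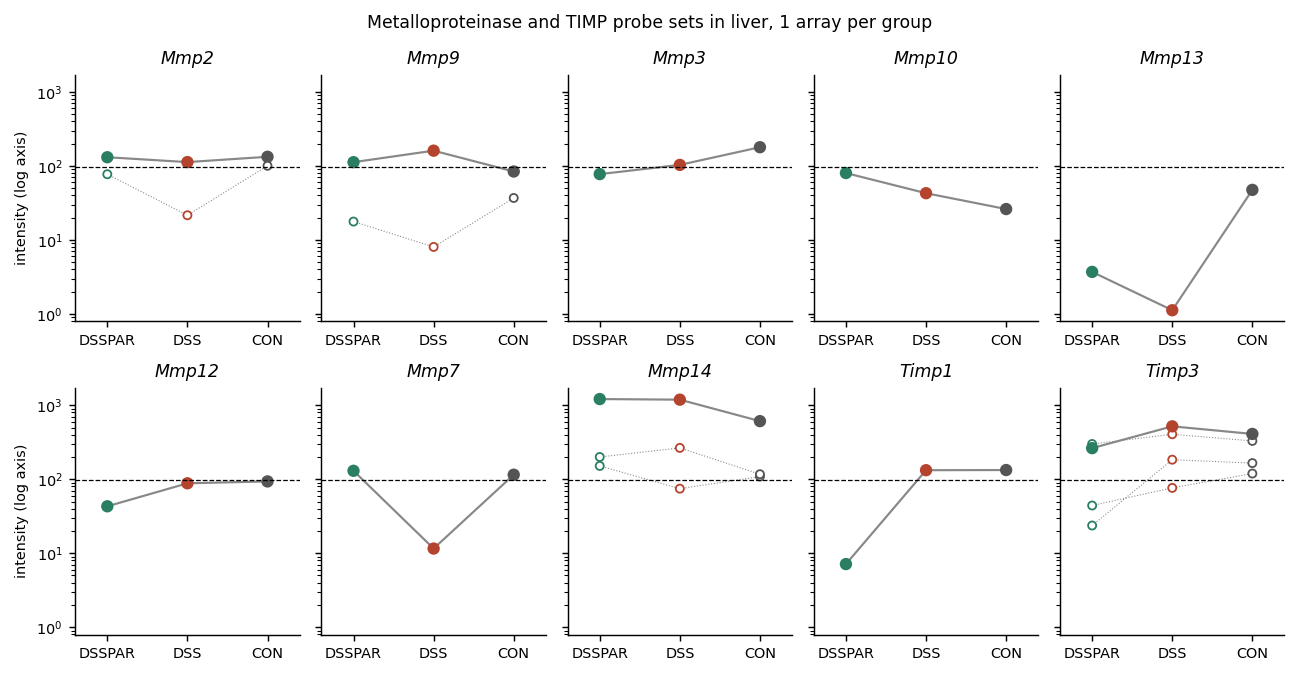
Intensity of each member's probe sets in liver (log axis), with the groups DSSPAR, DSS and CON from left to right and 1 array per group. Filled points are the brightest probe set, open points the others, and the dashed line is the floor of 96.6. Mmp14 reads 1213 in DSSPAR and 1191 in DSS against 610 in CON, and most other members lie around or under the floor.

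Neutrophil markers summed to 8768 in the DSSPAR liver, 23684 in the DSS liver and 1382 in the CON liver, with 3 of 8 measured lower by 2-fold or more in DSSPAR than in DSS and 3 of 6 at least 2-fold higher in DSS than in CON. Macrophage markers summed to 43453 in DSSPAR, 46917 in DSS and 25164 in CON. Hepatocyte markers (11) summed to 573599 in DSSPAR, 906352 in DSS and 698318 in CON, the same order of groups as Timp3, with 9 of 11 lower in DSSPAR than in DSS (median log2 ratio -0.61) and 1 of them past 2-fold. Fibroblast markers (11) summed to 15292 in DSSPAR, 20509 in DSS and 13392 in CON, with 8 of 9 measured lower in DSSPAR than in DSS. Endothelial markers (9) summed to 4169 in DSSPAR, 3469 in DSS and 4238 in CON. Mmp14 was near equal in DSSPAR and DSS and lower in CON, as was the macrophage sum, whereas Timp3 was lowest in DSSPAR. The 8 markers of hepatic stellate cells, the matrix-producing cells of the liver, summed to 8730 in DSSPAR, 9342 in DSS and 9887 in CON, with 0 past 2-fold in any comparison. The part of these cell types in the values of Mmp14 and Timp3 was not tested.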

How the data were processed

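The authors made the deposited linear intensities with MAS5, per the submitters' processing notes. The sources used here give neither its version nor the target of scaling. Columns were matched to samples by label, with 0 unused. Symbols came from GEO's platform table, which gave 1 symbol to 34958 of 45101 probe sets, several to 932 and no entry to 9211. Floors, choice of probe set and the 2-fold count are stated above. Names followed a rule: all members, up to 4 measured genes per list by size of log2 ratio (followed in other comparisons), and the 3 nearest genes of members past 4-fold. The 10 members and 19 lists (202 genes, 181 on the array) were chosen with earlier results of these data known. With 1 array per group no test was possible, and 6 arrays limit the precision. Alternatives were other floors, no floor, 3 scalings, averaging a gene's probe sets, dropping those of shared type and a 3-fold threshold. The counting was tested on simulated data, with known changes put only into genes whose mean lay above the floor. That test does not cover members with a CON value under the floor, nor differences between pools. Promoters were RefSeq's on GRCm38.p6. Software was Python 3.11.15 with NumPy 2.4.6, with pandas 2.3.3, with SciPy 1.17.1 and, for plots, with matplotlib 3.10.9.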

Additional observations from a re-analysis of the deposited data

How the results depend on the processing

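Of 108 counts of members recomputed under the alternatives, 95 stayed within 1.5 times their value and 13 moved. The 95 overstate the stability, because they include counts of 0 that stayed at 0. In liver every count in the main setting was 0, and at the 3-fold threshold such a count could only stay at 0. A fall from 6 to 4 members lower in DSSPAR than in DSS in colon, with arrays centred on their medians, is also among the 95. Of 48 medians, 46 moved by less than the spread between probe sets, but the liver medians near 0 had no stable sign: that of DSSPAR over CON ran from -0.33 to 0.42 and that of DSS over CON from -0.13 to 0.65. In colon, Mmp3, Mmp10 and Mmp13 kept their direction and their side of 2-fold in DSSPAR over DSS and in DSS over CON under all 8 alternatives. With the floor at the 75th percentile, 0 members were at least 2-fold higher in the DSSPAR colon than in the CON colon. The median log2 ratio of the members there was 0.029, and the liver median for DSS over CON was 0.65. With the mean over probe sets, 1 member was lower by 2-fold or more in DSSPAR than in CON in colon. In liver, 1 was lower by 2-fold or more in DSSPAR than in DSS and 1 in DSSPAR than in CON. At 3-fold, 3 members were lower in DSSPAR than in DSS in colon. With no floor, liver had 2 members higher and 2 lower by 2-fold or more in DSSPAR than in DSS. By the same threshold, 1 was above and 4 were below CON in DSSPAR, and 2 were below CON in DSS. With arrays centred on medians, liver had 1 member at least 2-fold higher in DSSPAR than in CON and 1 in DSS than in CON. Centred on the probe sets above the floor, 1 was lower by 2-fold or more in DSSPAR than in DSS. The cause of these moves was not tested. In colon, the counts of all genes past 2-fold were 46 higher and 146 lower in DSSPAR than in DSS. Centring on the medians turned them to 108 and 79, and quantile normalization to 66 and 92, while with no floor they were 1295 and 1532. For DSSPAR over CON, centring gave 890 and 121 in place of 415 and 248. In liver, centring gave 674 and 332 in place of 347 and 525 for DSSPAR over DSS, 1007 and 188 in place of 415 and 439 for DSSPAR over CON, and 854 and 349 in place of 616 and 548 for DSS over CON. The floor at the 95th percentile of olfactory receptor probe sets was chosen after seeing the data. No paired analysis was possible because each group had 1 array per tissue.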

Other observations

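A2m, which encodes a plasma inhibitor that traps many proteases, metalloproteinases among them, read 135 in the DSSPAR liver, 2042 in the DSS liver and 157 in the CON liver. DSSPAR was 15.1-fold below DSS, and DSS was 13.0-fold above CON, and its single probe set was under the floor in all 3 colon arrays. Mmp19, a metalloproteinase gene outside the members, read 576 in the DSSPAR liver, 354 in the DSS liver and 242 in the CON liver. Reck, a membrane-anchored inhibitor of metalloproteinases, read 187 in the DSSPAR liver, 290 in the DSS liver and 445 in the CON liver. It was 2.38-fold lower in DSSPAR than in CON there. Of 8 measured AP-1 subunit genes, 2 were at least 2-fold higher in the DSS liver than in the CON liver, and Fos read 1563 in DSSPAR, 1148 in DSS and 219 in CON. In colon Fos read 1018 in DSSPAR, 950 in DSS and 1325 in CON. These genes come from the lists and have 1 array per group, so the differences have no replicate check.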
